A study of Mus musculus with 16 samples.

Results

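β-Tubulin pairs with α-tubulin to form the dimers from which microtubules are built, and mammals make it from several genes called isotypes. The data described here are the mRNA counts of 7 of these isotypes, Tubb2a, Tubb2b, Tubb3, Tubb4a, Tubb4b, Tubb5 and Tubb6, in the brains of mice with and without Trrap in forebrain neurons. The members were chosen by symbol, and they are 7 of the 53801 genes in the count table. All 7 had enough counts to be tested in every comparison. In Trrap-FBΔ mice every isotype tested lower in the cortex, though the call of Tubb4a depended on single libraries, and in the striatum all but Tubb4a did. Tubb5 and Tubb3 dropped furthest in both tissues and Tubb4a changed least, so the mixture of β-tubulin mRNAs shifted toward Tubb4a.

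Trrap is a scaffold protein that brings histone acetyltransferases to chromatin. Total RNA came from the cortex and the striatum of 10-day-old mice on a C57BL6/J-129sv background, and 16 libraries were made, 4 for each combination of tissue and genotype. Control mice were Trrap Fl/+ and carried a wild-type Trrap allele beside the floxed allele, while Trrap-FBΔ mice were Trrap Fl/Fl. Both groups carried the Camk2-Cre transgene, so the controls also had Cre, and neurons of the controls in which it was active kept a single intact allele. The study's methods place the deletion in forebrain glutamatergic neurons, whereas the RNA came from whole tissue, which also holds interneurons, striatal projection neurons, glia and vessels. The labels carry 9 different numbers, taken here as the numbers of the mice. Mice 55, 58, 63 and 64 gave the control cortices, mice 58, 63, 64 and 65 the control striata, and mice 57, 59, 60 and 61 both tissues of the Trrap-FBΔ group. Values per library below follow these orders. Sex was not balanced, with 2 of 4 control cortices, 1 of 4 control striata and 3 of 4 libraries of either Trrap-FBΔ tissue from females.

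The isotypes share most of their protein sequence and differ mainly in the C-terminal tail, a flexible end rich in acidic residues that projects from the microtubule surface and carries polyglutamylation. Tubb3 is the isotype typical of neurons, Tubb2a and Tubb2b are enriched in brain and Tubb2b is high in developing neurons. Tubb5 is made in most cells and is abundant in the developing brain, Tubb4a is abundant in mature brain and in oligodendrocytes, and Tubb4b and Tubb6 are found in many tissues. Tubulin mRNAs are also under a decay pathway called autoregulation, in which an excess of free tubulin leads to degradation of the mRNAs being translated.

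The libraries held between 28743866 and 48761429 counted reads. The β-tubulins took 0.333% to 0.368% of all counts in the control cortices and 0.181% to 0.224% in the Trrap-FBΔ cortices, and 0.264% to 0.297% and 0.168% to 0.201% in the striata. Trrap itself was at 153 ± 15.6 CPM (counts scaled to a common library total) in control and 135 ± 10.3 CPM in Trrap-FBΔ cortices, and at 146 ± 5.73 and 141 ± 5.88 CPM in the striata (mean ± SD, n = 4 each). The groups overlapped, so whole-gene counts of Trrap do not check the genotype labels, which were followed. The study itself reports efficient Trrap deletion in 10-day-old Trrap-FBΔ brains, from protein and qPCR measurements. Of 10 markers of cortical excitatory neurons, 9 were lower in control striatum than in control cortex. Of 10 markers of striatal projection neurons, 2 were higher in control striatum than in control cortex. In Trrap-FBΔ mice 5 were higher and 1 was lower in the striatum. Among all genes tested, 3710 of 18284 were called higher in control striatum and 5166 of 18872 in Trrap-FBΔ striatum. The share of striatal markers called higher in control striatum was thus near that of all genes. The summed level of these striatal markers lay between 315 and 1519 CPM in the control striata. In the control cortices it lay between 372 and 991 CPM, so it was not absent there either. In mice 58, 63, 60 and 61 the sum was 916, 991, 611 and 609 CPM in the cortex. It was lower in their striata, at 315, 683, 470 and 509 CPM. In mice 57, 59 and 64 the striatum was higher, at 747, 504 and 1519 CPM against 443, 475 and 412 CPM. These markers therefore did not separate the tissue labels within every mouse. The control striatum of mouse 58 had the lowest value of all 16 libraries, and striatal results are therefore also given without it.

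In the mouse genome (GRCm38, GENCODE vM21) Tubb2a (ENSMUSG00000058672) and Tubb2b (ENSMUSG00000045136) lie near each other on chromosome 13, at 34074274 to 34078007 and 34126748 to 34130466, both on the minus strand. Tubb5 (ENSMUSG00000001525, 35833921 to 35838306) and Tubb4a (ENSMUSG00000062591, 57080066 to 57087782) lie on the minus strand of chromosome 17. Tubb3 (ENSMUSG00000062380) is on the plus strand of chromosome 8 at 123411424 to 123422015 and Tubb4b (ENSMUSG00000036752) on the minus strand of chromosome 2 at 25222160 to 25224702. Each main transcript has 4 exons, with the stop codon in the last, and a coding sequence of 444 to 450 codons. The last 20 codons before the stop codon are shown for 6 isotypes because the tail is where the isotypes differ most. They are read from the GENCODE transcripts, 5′ to 3′ on the coding strand, and all lie in the last exon. The codons for glutamate and aspartate are in capitals.
Tubb3: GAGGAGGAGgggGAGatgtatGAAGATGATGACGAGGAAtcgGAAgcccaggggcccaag
Tubb2a: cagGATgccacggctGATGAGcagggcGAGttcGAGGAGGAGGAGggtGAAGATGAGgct
Tubb2b: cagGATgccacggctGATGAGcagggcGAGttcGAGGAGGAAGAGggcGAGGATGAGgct
Tubb5: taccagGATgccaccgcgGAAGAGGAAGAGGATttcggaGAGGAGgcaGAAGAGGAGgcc
Tubb4a: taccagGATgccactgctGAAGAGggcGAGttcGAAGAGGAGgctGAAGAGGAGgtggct
Tubb4b: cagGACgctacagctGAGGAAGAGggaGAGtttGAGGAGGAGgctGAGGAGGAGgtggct

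The Tubb3 bases lie at chr8:123421620-123421679, those of Tubb2a at chr13:34074471-34074530 and of Tubb2b at chr13:34127474-34127533. Those of Tubb5 lie at chr17:35834985-35835044, of Tubb4a at chr17:57080693-57080752 and of Tubb4b at chr2:25222311-25222370. Of the 20 codons, 11 were acidic in each of these genes except Tubb4a, with 10. Over the whole coding sequence Tubb2a and Tubb2b were identical at 96.5% of aligned bases, whereas the other 20 pairs of isotypes were identical at 80.8% to 86.4%. This likeness matters for the counts, since only uniquely mapped reads of 51 bases were counted. Of the 51-base words in the exons of Tubb2a, 49.3% occurred in a transcript of another annotated gene, 708 of them in Tubb2b and 287 in the pseudogene Tubb2a-ps2. The share was 36.6% for Tubb2b and 40.8% for Tubb4b, 668 words of which lie in the pseudogene Tubb4b-ps1. Tubb3 and Tubb6 had no shared word, Tubb4a 3 and Tubb5 1. The counts of Tubb2a, Tubb2b and Tubb4b therefore rest on a part of their exons and are uncertain as absolute levels. The pseudogenes themselves took at most 68 counts in a library.

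The bases before the start site are shown for 4 isotypes, those with the largest and smallest change and a pair that shares brain enrichment. They come from RefSeq promoters on GRCm38.p6, in which 5 of the 7 isotypes could be used and Tubb2b had no entry. The letters stop where the GENCODE gene begins and read 5′ to 3′ on the strand of the gene. Capitals mark the GC box GGGCGG or its reverse complement CCGCCC, a motif bound by Sp-family factors.
Tubb5: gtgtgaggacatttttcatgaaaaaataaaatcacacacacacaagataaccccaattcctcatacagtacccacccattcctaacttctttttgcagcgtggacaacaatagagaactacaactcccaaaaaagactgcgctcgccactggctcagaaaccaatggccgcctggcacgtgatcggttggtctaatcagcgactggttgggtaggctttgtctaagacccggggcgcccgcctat
Tubb3: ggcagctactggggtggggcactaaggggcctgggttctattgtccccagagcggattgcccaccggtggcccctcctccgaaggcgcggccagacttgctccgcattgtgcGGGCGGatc
Tubb2a: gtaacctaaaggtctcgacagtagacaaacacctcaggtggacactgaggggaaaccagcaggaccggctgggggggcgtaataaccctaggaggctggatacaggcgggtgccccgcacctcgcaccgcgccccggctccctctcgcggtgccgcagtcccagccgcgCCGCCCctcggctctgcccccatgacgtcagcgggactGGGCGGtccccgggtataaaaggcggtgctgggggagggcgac
Tubb4a: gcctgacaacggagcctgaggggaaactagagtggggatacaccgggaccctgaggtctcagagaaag

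The stretches are chr17:35838307-35838551 for Tubb5, chr8:123411303-123411423 for Tubb3, chr13:34078009-34078258 for Tubb2a and chr17:57087783-57087850 for Tubb4a. Within the full 250 bases before the RefSeq start, Tubb2a and Tubb3 held 2 GC boxes each, Tubb4b held 1, and Tubb4a and Tubb5 held 0. Of this 250-base window, 182 bases in Tubb4a, 129 in Tubb3 and 5 in Tubb5 lie within the GENCODE gene. For Tubb3, 1 of the 2 boxes lies before that gene. Of 32851 RefSeq promoters, 32.7% held at least 1 GC box in this window. The window of Tubb4b held the letters CCAAT or ATTGG 5 times, that of Tubb5 2 times and that of Tubb3 once, and 33.9% of all promoters held them at least once. TATAAA or TTTATA was found in Tubb2a alone of these 5, and in 12.4% of all promoters. With the 50 bases after the start included (300 in all), Tubb2a, Tubb3, Tubb4b and Tubb5 held 2 GC boxes each and Tubb4a held 0. Of all promoters, 35.7% held at least 1 GC box in these 300 bases. Both strands were searched, and no matches of different motifs overlapped in these windows. A match of letters is a description and not evidence of binding.

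To compare isotypes with each other, counts were scaled to CPM and divided by the merged exon length in kilobases (kb). In control cortex Tubb2a stood at 399 ± 19.7 CPM per kb, Tubb3 at 380 ± 23.0 and Tubb5 at 376 ± 28.1 (mean ± SD, n = 4). The libraries of these 3 isotypes overlapped and their order was not resolved. Tubb4a followed at 268 ± 32.8, Tubb2b at 166 ± 29.0 and Tubb4b at 68.7 ± 5.22 CPM per kb, each below the one before it in all 4 libraries with no overlap. Tubb6 was the scarcest, at 2.46 ± 0.0897 CPM per kb. In the control striatum the order of means was the same, but the libraries of Tubb5 and Tubb4a overlapped too. In Trrap-FBΔ cortex the order was Tubb2a (249 ± 22.7), Tubb4a (223 ± 16.1), Tubb3 (156 ± 26.2), Tubb5 (148 ± 17.7), Tubb2b (81.5 ± 16.6), Tubb4b (48.8 ± 3.22) and Tubb6 (1.33 ± 0.179 CPM per kb), and Trrap-FBΔ striatum had the same order of means. The libraries of Tubb2a overlapped those of Tubb4a, and those of Tubb3 overlapped those of Tubb5, in both Trrap-FBΔ tissues, and in the striatum those of Tubb4a and Tubb3 overlapped as well. The order within the leading group depended on the length used. With the longest annotated transcript in place of the merged exons, Tubb5 came first in both control tissues, and with the number of unshared 51-base words the order of means was the same as with merged exons.

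**Figure D1:**
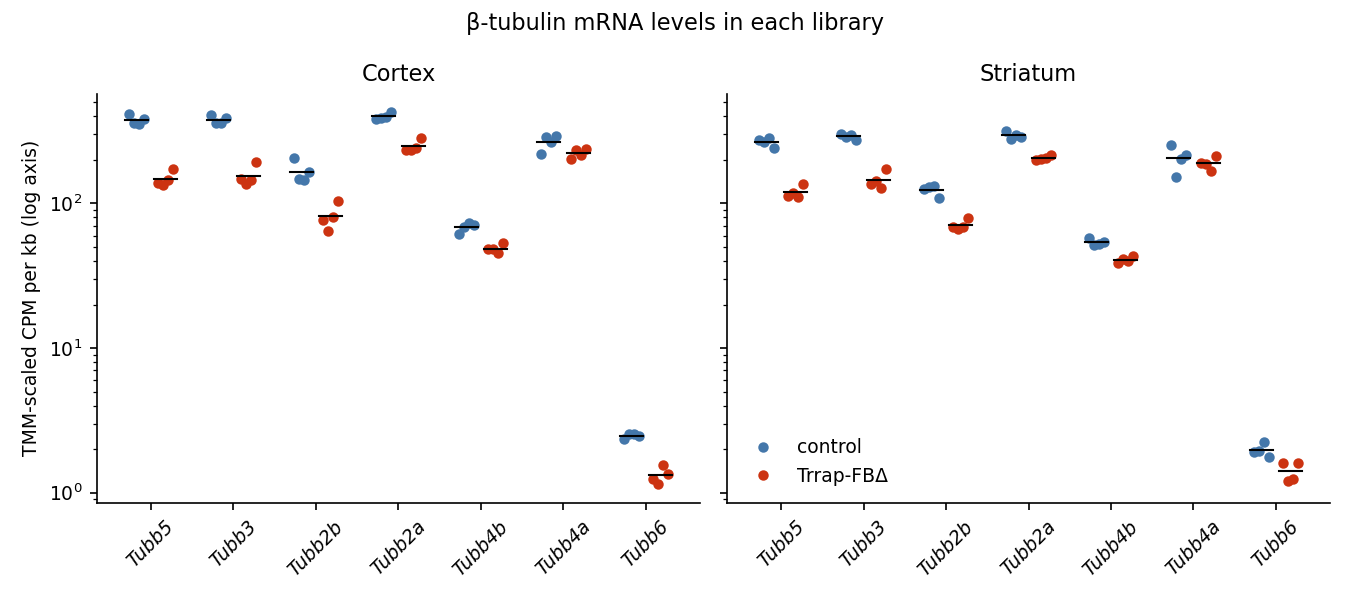
TMM-scaled CPM per kb of merged exons (log axis) of the 7 isotypes in each of the 16 libraries, with cortex on the left and striatum on the right. Points are libraries and black lines are means of 4. The Trrap-FBΔ points lie below all control points for every isotype except Tubb4a in both tissues.

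The first comparison asked how the mRNA of each isotype differed between Trrap-FBΔ and control mice, in each tissue separately. In the cortex 7 of 7 isotypes tested lower in Trrap-FBΔ mice at an adjusted p under 0.05 (edgeR quasi-likelihood test, Benjamini-Hochberg adjustment over all genes), where 17.6% of all genes tested were called lower. In the striatum 6 of 7 tested lower, beside 15.8% of all genes. Every Trrap-FBΔ library lay below every control library for 6 of 7 isotypes in either tissue, against 16.8% of all genes in cortical and 16% in striatal libraries. In bulk tissue, fewer cells of a type and less RNA per cell cannot be told apart.

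Tubb3, the neuronal isotype, was at 764, 675, 676 and 723 CPM in the control cortices and at 274, 256, 270.1 and 363 CPM in the Trrap-FBΔ cortices. The groups were far apart, and mouse 61 was the highest of its group. Tubb3 fell by 59% (log2 fold change -1.29, SE 0.10, adjusted p = 1.5e-05, edgeR), rank 33 from the lowest log2 fold change of 18268 genes tested. In the striatum it was at 567, 537, 558 and 510 CPM in controls and at 255, 269, 241 and 324 CPM in Trrap-FBΔ mice. The groups did not overlap here either, and the log2 fold change was -1.0 (SE 0.088, adjusted p = 0.00012, edgeR). Without the control striatum of mouse 58 it was -0.98 (adjusted p = 0.00038).

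Tubb2b, the isotype prominent in migrating and young neurons, was at 476, 339, 331 and 380 CPM in the control cortices and at 177, 148, 184 and 239 CPM in the Trrap-FBΔ cortices. The spread was wider than for Tubb3, with mouse 55 highest among controls, but the groups did not overlap. It fell by 51% (log2 fold change -1.03, SE 0.14, adjusted p = 0.00036, edgeR). In the striatum Tubb2b was at 288, 298, 302 and 249 CPM in controls and at 157, 152, 157 and 182 CPM in Trrap-FBΔ mice. All 4 Trrap-FBΔ values were lower than the lowest control, and the log2 fold change was -0.81 (SE 0.076, adjusted p = 0.00015, edgeR). With mouse 58 left out of the control striata it was -0.80 (adjusted p = 0.00051).

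Tubb2a, the close copy of Tubb2b, was at 620.3, 626, 636 and 690 CPM in the control cortices and at 379, 378, 390 and 455 CPM in the Trrap-FBΔ cortices. Its controls were tight, and its groups did not overlap. It fell by 37.8% (log2 fold change -0.68, SE 0.069, adjusted p = 5.7e-05, edgeR), a smaller estimate than that of Tubb2b, though the difference between the isotypes was not tested. In the striatum Tubb2a was at 513, 448, 482 and 468 CPM in controls and at 323, 327, 333 and 349 CPM in Trrap-FBΔ mice. The lowest control still stood above the highest Trrap-FBΔ library, and the log2 fold change was -0.52 (SE 0.057, adjusted p = 0.00026, edgeR). It was -0.49 without the control striatum of mouse 58 (adjusted p = 0.00070).

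Markers of immature neurons were read beside these isotypes. Among all genes tested, 17.6% were called lower and 15.7% higher in the Trrap-FBΔ cortex. In the striatum these shares were 15.8% and 14.4%. Of 9 such genes, 4 were lower and 1, Igfbpl1, was higher in the Trrap-FBΔ cortex, and 3 were lower and 1, Nhlh1, was higher in the striatum. Sox11, Neurod1 and Eomes were called in neither tissue. Among the lower ones, Gap43, a growth cone protein, had log2 fold changes of -0.96 and -0.73 in cortex and striatum (adjusted p = 2.8e-05 and 6.4e-05, edgeR), and Dcx, a microtubule-binding protein of migrating neurons, of -0.50 and -0.77 (adjusted p = 0.0063 and 0.00076). Their summed level was 1243 to 1588 CPM in control and 803 to 935 CPM in Trrap-FBΔ cortices, and 974 to 1112 and 671 to 719 CPM in the striata. Of 8 general neuronal markers, 5 were lower in cortical and 3 in striatal libraries, and 0 were higher. Rbfox3, Snap25 and Syt1 were called in neither tissue, with log2 fold changes of -0.06, 0.002 and 0.001 in the cortex. The largest falls among these markers in the cortex were those of Nefm (-1.06) and Stmn2 (-1.04). Of 10 markers of cortical excitatory neurons, 1 was lower in cortical and 5 were lower in striatal libraries, and their sum in the striatum was 452 to 719 CPM in controls and 353 to 493 CPM in Trrap-FBΔ mice. The part of these cell types in the β-tubulin changes was not tested.

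Tubb5, the isotype of dividing and many other cells, had the most counts of all 7 in controls. It was at 1377, 1191, 1171 and 1269 CPM in the control cortices and at 460, 448, 481 and 577 CPM in the Trrap-FBΔ cortices. The groups were separated by a wide gap, and mouse 61 was again the highest Trrap-FBΔ library. Tubb5 fell by 60.8% (log2 fold change -1.35, SE 0.089, adjusted p = 5.5e-06, edgeR), rank 23 from the lowest of all genes tested. In the striatum it was at 914, 879, 942 and 805 CPM in controls and at 377, 392, 366 and 454 CPM in Trrap-FBΔ mice. Again no library of the groups overlapped, and the log2 fold change was -1.15 (SE 0.081, adjusted p = 5.4e-05, edgeR). Without the control striatum of mouse 58 it was -1.14 (adjusted p = 0.00023).

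Tubb6 (ENSMUSG00000001473) lies on the plus strand of chromosome 18 at 67390717 to 67402749. This isotype, scarce in brain, was at 5.70, 6.17, 6.16 and 5.97 CPM in the control cortices and at 3.04, 2.79, 3.81 and 3.30 CPM in the Trrap-FBΔ cortices. Low as these levels are, the groups did not overlap. It fell by 46.1% (log2 fold change -0.89, SE 0.11, adjusted p = 0.00015, edgeR). In the striatum Tubb6 was at 4.66, 4.71, 5.44 and 4.27 CPM in controls and at 3.93, 2.95, 3.02 and 3.92 CPM in Trrap-FBΔ mice. The groups came close to each other without overlapping, and the log2 fold change was -0.46 (SE 0.13, adjusted p = 0.021, edgeR). This call was lost in 3 of 8 fits that left out a library, those without control mouse 64, Trrap-FBΔ mouse 59 or Trrap-FBΔ mouse 60 (adjusted p = 0.057, 0.060 and 0.060, edgeR). It was kept without the control striatum of mouse 58 (log2 fold change -0.47, adjusted p = 0.036).

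Markers of dividing cells were read beside Tubb5 and Tubb6, though other isotypes fell with genotype as well. All 12 were lower in Trrap-FBΔ mice in both tissues, with median log2 fold changes of -0.81 (cortex) and -0.76 (striatum), and their sum was 92.8 to 113 CPM in control and 58 to 63.3 CPM in Trrap-FBΔ cortices. In the striatum it was 111 to 141 and 65.4 to 79.1 CPM. In controls this sum was thus not lower in striatum than in cortex, whereas Tubb5 and Tubb6 were (log2 fold changes -0.50 and -0.33). Mki67, a protein of cycling cells, had log2 fold changes of -0.91 and -0.83 (adjusted p = 2.8e-05 and 0.00078, edgeR). Of 10 endothelial markers, 7 were lower in cortical and 1 in striatal libraries, and of 10 microglial markers, 9 and 6 were lower. Of 8 markers of oligodendrocyte precursors, 6 were lower in cortical and 3 in striatal libraries, and their sum in the cortex was 594 to 689 CPM in controls and 479 to 549 CPM in Trrap-FBΔ mice. Of 8 mural cell markers, 4 and 2 were lower, and of 10 astrocyte markers, 2 were lower and 2 higher in the cortex, and 1 was lower and 2 were higher in the striatum. The part of these cells in the β-tubulin levels was not tested.

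Tubb4b, an isotype of many tissues and of cilia, was at 128, 143, 153 and 149 CPM in the control cortices and at 101, 101, 95 and 111 CPM in the Trrap-FBΔ cortices. The groups did not overlap. It fell by 29.0% (log2 fold change -0.49, SE 0.062, adjusted p = 0.00020, edgeR). In the striatum Tubb4b was at 120, 108, 110.1 and 112 CPM in controls and at 80.8, 86.6, 84.0 and 89.8 CPM in Trrap-FBΔ mice, again apart. The log2 fold change was -0.40 (SE 0.050, adjusted p = 0.00046, edgeR), and -0.37 without the control striatum of mouse 58 (adjusted p = 0.0011). Of 10 markers of ependymal and choroid plexus cells, 1 was lower in the cortex, where 17.6% of all genes were. In the striatum 0 changed (edgeR, with 2 at an unadjusted p under 0.05 and 0 called by DESeq2).

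Tubb4a, the isotype of mature brain and oligodendrocytes, was at 493, 646, 597 and 650 CPM in the control cortices and at 453, 521, 483 and 531 CPM in the Trrap-FBΔ cortices. The groups overlapped, since control mouse 55 lay below Trrap-FBΔ mice 59 and 61. Tubb4a fell by 16.7% (log2 fold change -0.26, SE 0.087, adjusted p = 0.036, edgeR), and 18.2% of all genes had a lower log2 fold change. This call was not stable. It was kept in 2 of 8 fits that left out a library, those without control mouse 55 and Trrap-FBΔ mouse 61, and was lost without control mouse 58, 63 or 64 or Trrap-FBΔ mouse 57, 59 or 60, with adjusted p between 0.0576 and 0.0973 in these 6. It was also lost with all 16 libraries in a single fit (adjusted p = 0.11) and with sex as a covariate (adjusted p = 0.069). In the striatum Tubb4a was at 561, 339, 452 and 483 CPM in controls and at 423, 418, 373 and 474 CPM in Trrap-FBΔ mice. The Trrap-FBΔ values lay within the control range, and the log2 fold change was -0.12 (95% interval -0.41 to 0.18, adjusted p = 0.53, edgeR). Without the control striatum of mouse 58, the highest in Tubb4a, it was -0.01 (adjusted p = 0.96).

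Markers of mature oligodendrocytes varied widely between libraries and were read beside Tubb4a. Of 10, 7 were lower in the Trrap-FBΔ cortex by edgeR, beside 17.6% of all genes, and 3 were called by DESeq2. In the striatum 0 were called by either tool or at an unadjusted p under 0.05. Their sum was 2090, 3260, 3012 and 1843 CPM in the control cortices and 2093, 1797, 1625 and 1349 CPM in the Trrap-FBΔ cortices. In the control striata it was 9790, 3273, 4576 and 7273 CPM, which is the same order of mice as for Tubb4a. In the Trrap-FBΔ striata it was 4947, 6609, 4099 and 7201 CPM, with mouse 61 highest and mouse 60 lowest in both. In the cortex the orders were not the same. Control mouse 64 and Trrap-FBΔ mouse 61 were the highest of their groups in Tubb4a and the lowest in these markers. Trrap-FBΔ mouse 57 was the lowest in Tubb4a and the highest in these markers. The part of oligodendrocytes in the Tubb4a level was not tested.

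**Figure D2:**
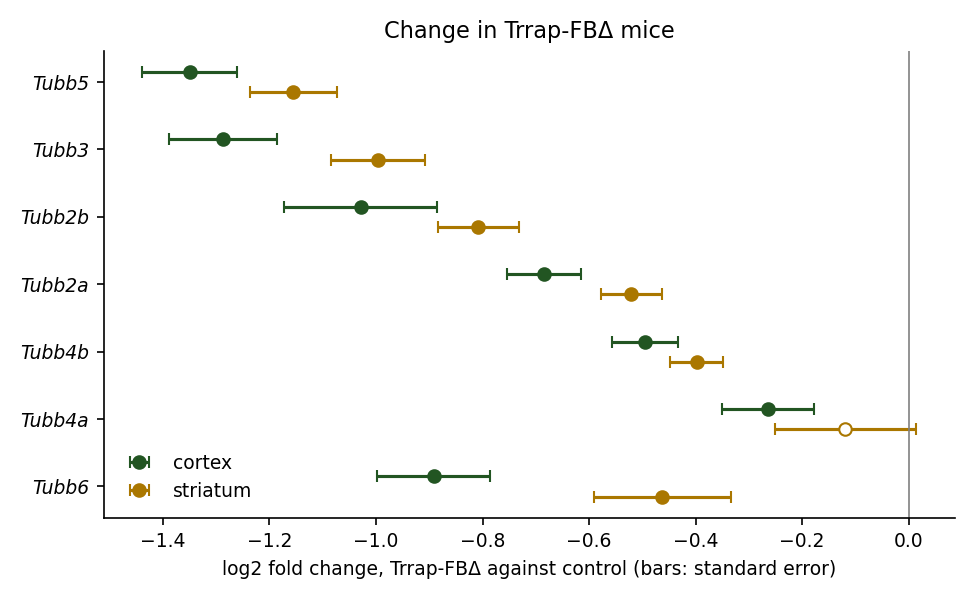
Log2 fold change of Trrap-FBΔ against control for each isotype in cortex (green) and striatum (ochre), with bars of 1 standard error from edgeR, 4 against 4 libraries. Filled points passed an adjusted p under 0.05 and the open point did not. Estimates run from -1.35 for Tubb5 to -0.26 for Tubb4a in the cortex and from -1.15 to -0.12 in the striatum.

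The size of the drop was then compared between the tissues with an interaction term over all 16 libraries. The tissues are as labelled, and striatal markers did not separate them within every mouse. The estimate for striatum minus cortex was above 0 for all 7 isotypes, between 0.10 and 0.43 on the log2 scale, so the point estimates of the drop were smaller in the striatum. However, 0 of 7 isotypes passed the adjusted threshold in edgeR, where 0.437% of all genes did, and 0 of 7 passed in DESeq2. The largest difference was that of Tubb6, at 0.43 (95% interval 0.08 to 0.78, adjusted p = 0.29, edgeR), the 1 isotype with an unadjusted p under 0.05. For Tubb5 the difference was 0.19 (95% interval -0.07 to 0.45, adjusted p = 0.57) and for Tubb3 0.29 (95% interval -0.01 to 0.59, adjusted p = 0.44). With the mouse as a replicate block in this fit, 0 of 7 passed as well.

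Together the 7 isotypes summed to 1701, 1617, 1597 and 1728 CPM per kb in the control cortices and to 850, 854, 876 and 1047 CPM per kb in the Trrap-FBΔ cortices. In the striatum the sums were 1333, 1165, 1271 and 1186 CPM per kb in controls and 749, 762, 723 and 863 CPM per kb in Trrap-FBΔ mice. The pooled β-tubulin mRNA was therefore well below every control in all 8 Trrap-FBΔ libraries, and mouse 61 was the highest of its group in both tissues.

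The make-up of this pool also differed. Tubb4a made up 16.2% ± 2.16 of the sum in control and 24.7% ± 1.97 in Trrap-FBΔ cortices (mean ± SD, n = 4 each). In the striatum its share was 16.5% ± 2.64 and 24.5% ± 0.916. The lowest Trrap-FBΔ share, 22.7% in the cortex and 23.2% in the striatum, was above the highest control share, 17.9% and 18.9%. Tubb5 went the other way, from 22.7% ± 1.13 to 16.3% ± 0.373 in the cortex and from 21.5% ± 1.16 to 15.4% ± 0.314 in the striatum. Tubb3 went from 22.9% ± 0.812 to 17.1% ± 1.09 and from 23.5% ± 0.849 to 18.8% ± 0.999. Shares sum to 100%, so a rise in one share does not by itself mean more mRNA of that isotype, and the CPM of Tubb4a did not rise.

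The remaining shares shifted less. Tubb2a went from 24.1% ± 0.996 to 27.5% ± 0.339 in the cortex and from 24.0% ± 0.385 to 26.8% ± 1.43 in the striatum. Tubb4b went from 4.14% ± 0.407 to 5.40% ± 0.305 and from 4.35% ± 0.164 to 5.29% ± 0.263. The groups did not overlap for either isotype in either tissue. Tubb2b, at 9.98% ± 1.49 and 8.93% ± 1.0 in the cortex, had overlapping groups, and Tubb6 was at 0.149% and 0.147%. By place in the order of means, Tubb4a moved from the fourth isotype in controls to the second in Trrap-FBΔ mice, in both tissues and with each of the 3 lengths tried. Counted against unshared 51-base words, chosen as an alternative after seeing the data, the share of Tubb2a in control cortex was 36.6%, over 1.5 times that with merged exons.

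**Figure D3:**
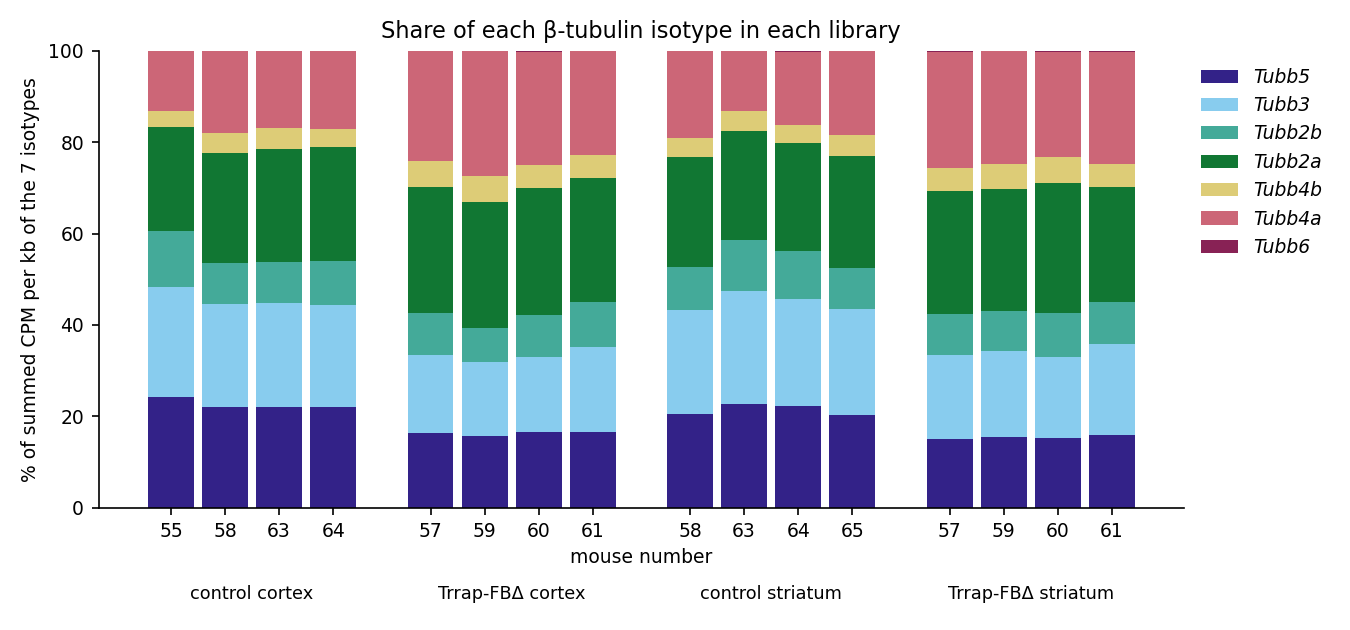
Share of each isotype, in percent, in the summed CPM per kb of the 7 isotypes, as a stacked bar per library labelled with the mouse number. The Tubb4a segment takes 13.0% to 18.9% in the 8 control libraries and 22.7% to 27.4% in the 8 Trrap-FBΔ libraries, and Tubb6 is too thin to be seen in most bars.

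A further comparison set the striatum against the cortex within a genotype. These tests use the same libraries as the comparisons of genotype and are not independent of them. They too take the tissues as labelled, which striatal markers did not separate within every mouse. In controls 6 of 7 isotypes were lower in the striatum, where 20.1% of all genes were called lower. Their log2 fold changes ran from -0.50 for Tubb5 (SE 0.078, adjusted p = 0.00058, edgeR) to -0.33 for Tubb6 (SE 0.096, adjusted p = 0.019). Tubb4a had -0.37 (SE 0.14, adjusted p = 0.061) and did not pass, but it passed with DESeq2 (-0.38, adjusted p = 0.025) and in edgeR with no filter on low counts (-0.38, adjusted p = 0.026). With the mouse as a replicate block, Tubb4a passed (log2 fold change -0.51, adjusted p = 0.017, edgeR) and Tubb6 did not (-0.30, adjusted p = 0.075). Without the control striatum of mouse 58, all 7 passed, with Tubb4a at -0.49 (adjusted p = 0.019). Without the control cortex of mouse 55, Tubb4a passed as well (-0.46, adjusted p = 0.028), and without the control striatum of mouse 65, Tubb6 was lost (adjusted p = 0.056).

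In Trrap-FBΔ mice 4 of 7 isotypes were lower in the striatum, beside 27.4% of all genes. They were Tubb5 (log2 fold change -0.31, SE 0.088, adjusted p = 0.011, edgeR), Tubb2a (-0.27, SE 0.063, adjusted p = 0.0033), Tubb4b (-0.26, SE 0.052, adjusted p = 0.0012) and Tubb4a (-0.24, SE 0.075, adjusted p = 0.018). Without the cortex of Trrap-FBΔ mouse 61, Tubb4a was lost (adjusted p = 0.052). Tubb2b had -0.21 (adjusted p = 0.16) and passed with the mouse as a replicate block (-0.19, adjusted p = 0.034) and without the cortex of Trrap-FBΔ mouse 59 (-0.30, adjusted p = 0.024). Tubb3 had -0.10 (95% interval -0.34 to 0.15, adjusted p = 0.50) and Tubb6 0.10 (95% interval -0.20 to 0.39, adjusted p = 0.59). That an isotype passed in controls and not in Trrap-FBΔ mice does not show a difference, and the interaction above is the test of it.

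**Figure D4:**
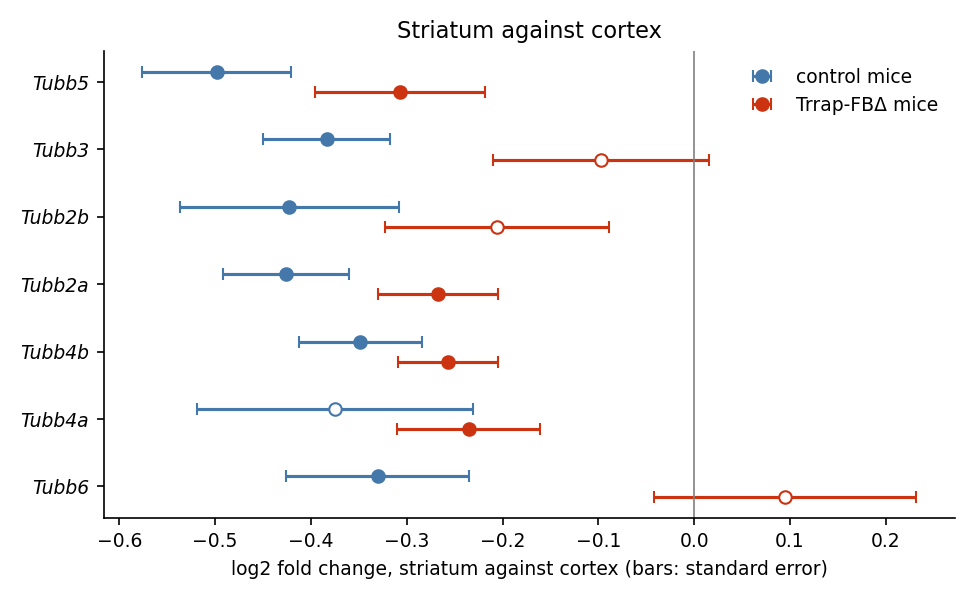
Log2 fold change of striatum against cortex for each isotype in control mice (blue) and Trrap-FBΔ mice (red), with bars of 1 standard error from edgeR. Filled points passed an adjusted p under 0.05 and open points did not. Control estimates lie between -0.50 and -0.33, and Trrap-FBΔ estimates between -0.31 and 0.10.

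Across the 16 libraries the isotypes rose and fell together to different degrees. Over log2 CPM, the pairs among the 6 isotypes other than Tubb4a had Pearson's r between 0.797 and 0.99, whereas Tubb4a had r between 0.468 and 0.752 with the others. These points share the groups of genotype and tissue, so the values describe the pattern over groups. Of 19437 other genes, the most like Tubb5 were Pfkp, a glycolytic phosphofructokinase (r = 0.994), Tubb3 (r = 0.990) and Trpv2. The genes most like Tubb3 were Pfkp, Tubb5 and Trpv2. Dpysl3, a collapsin response mediator of growth cones, was most like Tubb2b (r = 0.986), followed by Faap100 and Tubb5. Rtn1, a reticulon of the neuronal endoplasmic reticulum, Ywhag and Tgfb1i1 were most like Tubb2a (r = 0.988 for Rtn1), and Tubb2a, Tgfb1i1 and Gars most like Tubb4b (r = 0.979 for Tubb2a). Tubb6 was most like Mcm2, a subunit of the replicative helicase (r = 0.958), then Phf23 and E2f7. Tubb4a had weaker partners, led by Prkar1b, a regulatory subunit of protein kinase A (r = 0.945), then Zdhhc9 and Sulf2.

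The other genes of the tubulin pathway were read from lists of partners, folding factors and modifying enzymes. Where genes were called higher in Trrap-FBΔ mice, the shares among all genes were 15.7% (cortex) and 14.4% (striatum). The shares called lower were 17.6% and 15.8%. Of 5 α-tubulins tested, 3 were lower and 1 was higher in each tissue. Tuba1a, the main α-tubulin of developing neurons, went from 526 ± 20.5 to 274 ± 40.5 CPM in the cortex (log2 fold change -0.95, adjusted p = 4.9e-05, edgeR) and had -0.81 in the striatum (adjusted p = 0.00019). Tuba1b had -0.69 and -0.57 (adjusted p = 0.00018 and 0.0012). Tuba8, a minor α-tubulin, rose, with 0.59 and 0.79 (adjusted p = 0.021 and 0.0016). Sequence shared among the α-tubulins was not measured, so their counts are given with that uncertainty. Of 4 γ-, δ- and ε-tubulins, 1 was higher in each tissue, Tubg2, with 0.43 and 0.37 (adjusted p = 0.00030 and 0.0011). Tubb1, the β-tubulin of platelets, had at most 3 counts in a library and was not tested.

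Newly made β-tubulin is folded by prefoldin, the CCT chaperonin and the tubulin-binding cofactors. Of 6 prefoldin subunits, 0 were called in either tissue by edgeR, by DESeq2 or at an unadjusted p under 0.05. Of the CCT subunits, 3 of 8 tested in the cortex were lower, as were 3 of 9 in the striatum, by small amounts, with Cct3 at -0.29 and -0.32 (adjusted p = 0.00088 and 0.00048, edgeR), Cct4 at -0.25 and -0.28 and Cct6a at -0.21 and -0.18. Of 7 cofactors, 3 were higher in each tissue and 1, Tbcb, was lower in the striatum. The 3 were Tbce, which acts in dimer assembly, at 0.37 and 0.25 (adjusted p = 0.0057 and 0.042), the related Tbcel at 0.23 and 0.20, and Arl2, a small GTPase of the cofactor complex, at 0.27 and 0.41. Of the 2 autoregulation genes, Scaper was lower in both tissues (-0.41 and -0.19, adjusted p = 0.0014 and 0.023), while Ttc5, which recognizes nascent tubulin, was higher in the cortex (0.21, adjusted p = 0.010) and had 0.08 in the striatum (adjusted p = 0.46).

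Tubulin tails are modified by enzymes of the Ttll family, and their glutamate chains are trimmed by cytosolic carboxypeptidases. The list was drawn by family and was not limited to enzymes that add glutamate or that prefer β-tubulin. Of 15 enzymes of these families tested in cortical and 16 in striatal libraries, 2 were lower and 5 were higher in each. The higher ones included Ttll13 (log2 fold changes 1.17 and 0.73, adjusted p = 0.00042 and 0.0089, edgeR), Agbl3 (0.54 and 0.53, adjusted p = 0.0012 and 0.00046) and Agbl4 (0.51 and 0.42, adjusted p = 0.0013 and 0.0085), the last 2 being carboxypeptidases. The lower ones were the carboxypeptidase Agtpbp1 (-0.28 and -0.19, adjusted p = 0.0023 and 0.0057, edgeR), which at 359 CPM in control cortex was far more abundant than Ttll13, and the glutamylase subunit Ttll1 (-0.26 and -0.16, adjusted p = 0.0059 and 0.040). The summed level of the list overlapped between genotypes, at 785 to 832 CPM in control and 768 to 822 CPM in Trrap-FBΔ cortices and at 663 to 679 and 634 to 665 CPM in the striata. Ttll13 was scarce, at 0.647 ± 0.0587 CPM in control and 1.45 ± 0.185 CPM in Trrap-FBΔ cortices. The median log2 fold changes of the enzymes were 0.19 and 0.15, those of all genes 0.00 and -0.01, and those of the α-tubulins -0.52 and -0.47.

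**Figure D5:**
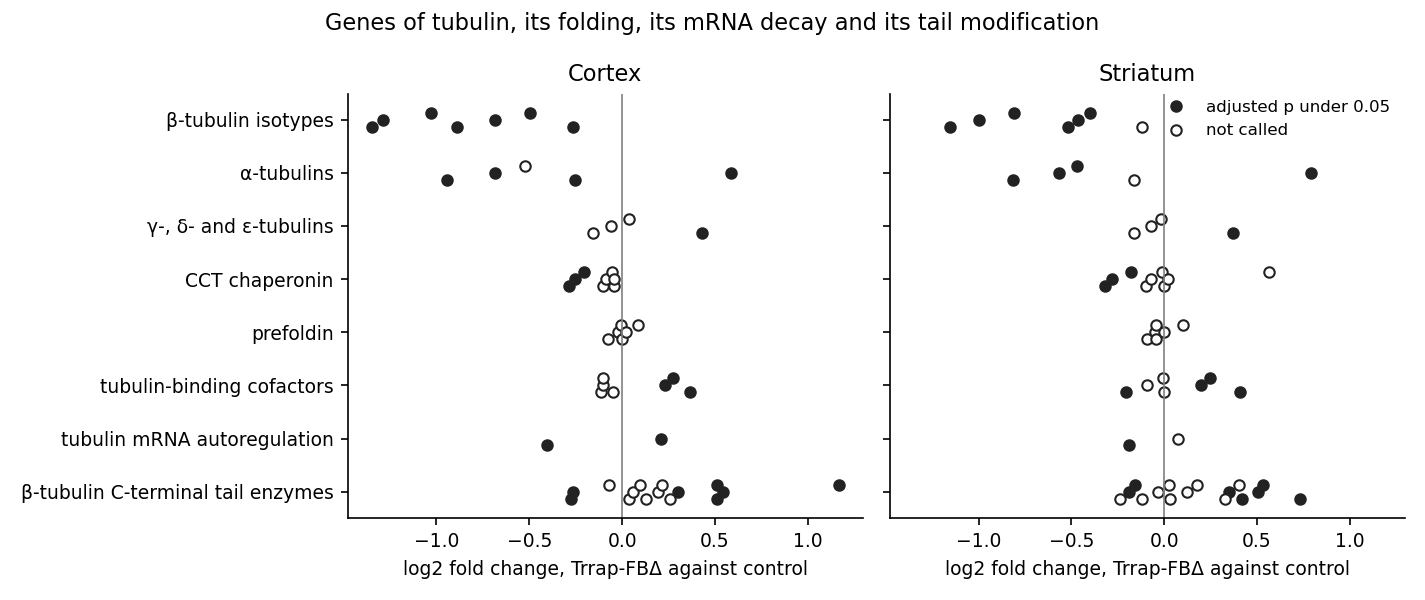
Log2 fold change of Trrap-FBΔ against control for each tested gene of the β-tubulins and of 7 related lists, in cortex (left) and striatum (right). Filled points passed an adjusted p under 0.05 by edgeR and open points did not. The β-tubulin points all lie left of 0, between -1.35 and -0.12 over both tissues, while the cofactor, γ-tubulin and tail enzyme lists have filled points on the right.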

How the data were processed

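RNA-seq counts of 16 libraries, 4 per tissue and genotype, were analysed. Per the study's methods and processing notes, the authors made strand-specific libraries, converted base calls with bcl2fastq 1.8.4, aligned single-end reads to GRCm38 with STAR 2.5.4b and counted uniquely mapped reads per Ensembl gene with featureCounts 1.5.0. The deposited values are these raw counts, not normalized. Groups came from the labels, and each column of the table was matched to a library by its title. The members and lists were chosen with earlier results of these data known.

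In R 4.3.3, each comparison was fitted across all genes by edgeR 4.0.16 (quasi-likelihood, after filterByExpr and TMM scaling), with Benjamini-Hochberg adjustment and a threshold of 0.05, separately in the 8 libraries of each tissue for genotype. Reported levels are CPM scaled by TMM over all 16 libraries. DESeq2 1.42.0 (the authors' tool), limma-voom 3.58.1, other scalings, filters, covariates and leaving out each library were alternatives, and the steps were tested on simulated data. All 7 isotypes, Trrap and Tubb1 are named. Of each pathway list, up to 3 genes called in both tissues with the largest change are named, with others named after seeing their values, and for each isotype the 3 genes with the highest r of log2 CPM (prior count 2). An SE is the log2 fold change over the root of the F statistic, and 95% intervals use the t quantile of its degrees of freedom.

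Cortex and striatum libraries whose titles share a number, with the same sex and genotype, were taken to come from the same mouse, which the labels do not state outright. Their deviations from group means over 18742 autosomal genes correlated with r of 0.0845 to 0.244 in 7 pairs, 6 of them over 0.1, against -0.173 to 0.123 in 25 pairs of different mice. None of the 24 pairs of libraries within a group was a duplicate (chi-square over degrees of freedom 8.26 to 44.6). P-values of the genotype tests within a tissue measure the spread between mice of a group. The main interaction and tissue tests took libraries as independent, although 7 mice gave both tissues. The fits with the mouse as a replicate block instead measure the spread within a mouse. Libraries held 28743866 to 48761429 counts.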

Additional observations from a re-analysis of the deposited data

Results flagged for a closer look

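In 3 of 28 groups of 4 libraries, the gap between an end library and its neighbour was larger, relative to the group's range, than Dixon's 95% critical value allows. Chance alone gives such a gap in about 5% of groups. In all 3 the library was that of Trrap-FBΔ mouse 61, which stood above the other Trrap-FBΔ mice. Tubb2a in the cortex was at 455 CPM, where the others were at 378 to 390 CPM. Tubb3 in the cortex was at 363 CPM, where the others were at 256 to 274 CPM. Tubb2b in the striatum was at 182 CPM, where the others were at 152 to 157 CPM. Without this mouse the estimates in the cortex were -0.74 for Tubb2a and -1.40 for Tubb3, and that of Tubb2b in the striatum was -0.87, all further from 0 and all still called by edgeR. The cause of the higher values was not tested.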

How the results depend on the processing

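The counts of isotypes called were within 1.5 times of those reported in all 88 alternatives over the 5 comparisons. With 7 isotypes this bound is wide and lets single calls be lost, and for the difference between tissues the count was 0 throughout. Of the recomputed log2 fold changes of single isotypes, 591 kept their direction and their side of the threshold, 17 lost and 7 gained the call and 1 changed sign. The calls of Tubb5, Tubb3, Tubb2b, Tubb2a and Tubb4b between genotypes held in both tissues under every alternative run. Tubb4a in the cortex was lost in 9 alternatives, with the test against a fold of 1.2 among them (adjusted p = 0.78, edgeR), and Tubb6 in the striatum in 4, with that test too (adjusted p = 0.18). Tubb3 in striatum against cortex of Trrap-FBΔ mice changed sign without the cortex of Trrap-FBΔ mouse 61, at 0.0253 (range -0.193 to 0.0253 over libraries left out, never called). With upper-quartile scaling, Tubb4a lost its call in striatum against cortex of Trrap-FBΔ mice (-0.17, adjusted p = 0.078, edgeR), and the genes called there were 4126 lower and 6318 higher, against 5163 and 5166. Over all genes, the test against a fold of 1.2 called 1381 genes in the cortex and 1364 in the striatum, against 6090 and 5704. The genes called for a difference between tissues were 85, but 195 without a filter, 430 with DESeq2, 219 with the mouse as a replicate block and 18 to 151 with a library left out. The block changed no other isotype call than those given for Tubb4a, Tubb6 and Tubb2b in striatum against cortex. With other lengths, 48 mean isotype shares moved by more than 1 SD and 8 did not. The share of 51-base words unique in the genome was not run. The 51-base words that replaced it were compared among annotated transcripts. Shared reads limit the absolute levels of Tubb2a, Tubb2b and Tubb4b, and with 4 mice per group small changes such as those of Tubb4a were not resolved.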
